A study of Homo sapiens with 28 samples.

Results

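Fli1, Erg, Etv6, Gata2, Mecom, Mllt3, Angpt1 and Cd34 are 8 mouse genes known for their part in blood stem and progenitor cells, and their chromatin was followed here from 50 kb before each gene to 50 kb after it. The 8 are set against 21887 protein-coding genes measured in the same way. They were chosen by name from known stem and progenitor genes, selected with the H3K27ac difference between the genotypes in these same libraries in view. The H3K27ac levels of the 8 are therefore a description, with no test. H3K27me3 was measured in separate libraries and was tested.

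Acetylation of histone H3 at lysine 27 (H3K27ac) lies on active promoters and enhancers. Trimethylation of the same residue (H3K27me3) lies on genes held silent by the Polycomb repressive complex PRC2, whose catalytic subunit is Ezh2 or its relative Ezh1. One histone tail can carry only 1 of these marks at that residue. In blood stem cells Fli1, Erg and Gata2 bind DNA together with Runx1, Tal1, Lyl1 and Lmo2, a group called the heptad, at many enhancers, including their own. Some of these factors are turned down in some lineages as cells leave the stem and progenitor state. Fli1 is also needed for megakaryocytes and Gata2 for mast cells.

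The data were chromatin immunoprecipitation sequencing (ChIP-seq) peak lists of bone marrow from 8 C57BL/6 mice, with 1 H3K27ac and 1 H3K27me3 library per mouse. The 3 WT mice were Ezh2 fl/fl and Runx1 fl/fl with Rag1 +/+ and Flt3 +/+, so they carried the floxed alleles without a Cre, and their marrow had been enriched for Kit-expressing cells with CD117 beads. The 5 DKOITD mice (DKOITD48, DKOITD52, DKOITD53e, DKOITD83 and DKOITD185) were Ezh2 fl/fl and Runx1 fl/fl with Rag1 Cre/+ and Flt3 ITD/+, and their marrow was used without enrichment. Rag1 drives the Cre in early lymphoid cells, so other marrow cells need not have lost either gene, and the share of cells with the deletion is not given in the sources used here. Flt3 ITD is an internal tandem duplication that makes the Flt3 receptor signal without its ligand. Ages are not given in the sources used here. Genotype, cell preparation and the input library differ together, so their effects cannot be told apart. In bulk marrow, fewer cells of a type and less mark per cell cannot be told apart either.

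The measure is the covered length, in kb, under the peaks of 1 library within a window. A window counts as marked with at least 0.2 kb. The gene start is the outermost annotated end of the gene. Starts inside a gene were not assigned, so the promoter used in marrow may lie elsewhere, as at Fli1, Erg or Mecom. The peak caller used 6515614 to 7072997 H3K27ac fragments in WT and 9435546 to 11458360 in DKOITD, and 2766339 to 3994483 H3K27me3 fragments in WT against 3343831 to 6411696 in DKOITD. The genome under H3K27ac peaks, called the territory here, spanned 16.8 to 29.7 Mb in WT and 7.03 to 23.8 Mb in DKOITD. For H3K27me3 it spanned 13.8 to 27.3 Mb and 3.17 to 40.5 Mb. DKOITD48, DKOITD53e and DKOITD83 had the smallest territories for both marks, while DKOITD52 and DKOITD185 had H3K27ac territories of 20.4 and 23.8 Mb, above the 16.8 Mb of WT2. A place without a peak is below the calling threshold in that library and is not shown to lack the mark.

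Erg, Mllt3 and Angpt1 had more H3K27ac in every WT mouse than in every DKOITD mouse. This held for 3 of the 8 genes, against 10.8% of the 21887 genes, and nothing is read from the first count because the contrast chose the genes. Angpt1 was the only one of the 8 marked over the whole window in 3 of 3 WT mice and in 0 of 5 DKOITD mice, a pattern of 0.567% of all genes. In the limma fit over 15657 genes, 489 genes (3.12%) had shorter and 33 (0.211%) longer H3K27ac in DKOITD, with adjusted p-values under 0.05. None of the 8 was among them. At an unadjusted limma p under 0.05, 3247 of the 15657 genes were lower and 245 higher. The 8 are not counted at that threshold, because the contrast chose them. Scaling by territory moved the calls over all genes at an adjusted p under 0.05 to 545 lower and 567 higher. Leaving out DKOITD48, DKOITD53e and DKOITD83 gave 117 lower and 194 higher.

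Set per length of window, the 3 ETS factors carried most of the H3K27ac in WT. Peaks lay over 9.49% ± 4.51 (SD, n = 3) of the Etv6 window, 7.67% ± 2.1 of the Erg window and 7.16% ± 3.14 of the Fli1 window. The other 5 genes had mean shares of 0.162% (Mecom), 0.212% (Cd34), 0.303% (Mllt3), 0.413% (Angpt1) and 0.506% (Gata2), all below the lowest single value of any ETS factor in WT, 4.38%. In DKOITD the shares were 5.04% ± 4.92 (SD, n = 5) for Etv6, 2.67% ± 2.44 for Fli1 and 1.17% ± 1.49 for Erg. Etv6 stood above Fli1, and Fli1 above Erg, within each of the 5 DKOITD mice. WT1 had the same order, while Erg stood above Fli1 in WT2 and WT3. The 3 shares come from the same mice, and their order was not tested.

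**Figure D1:**
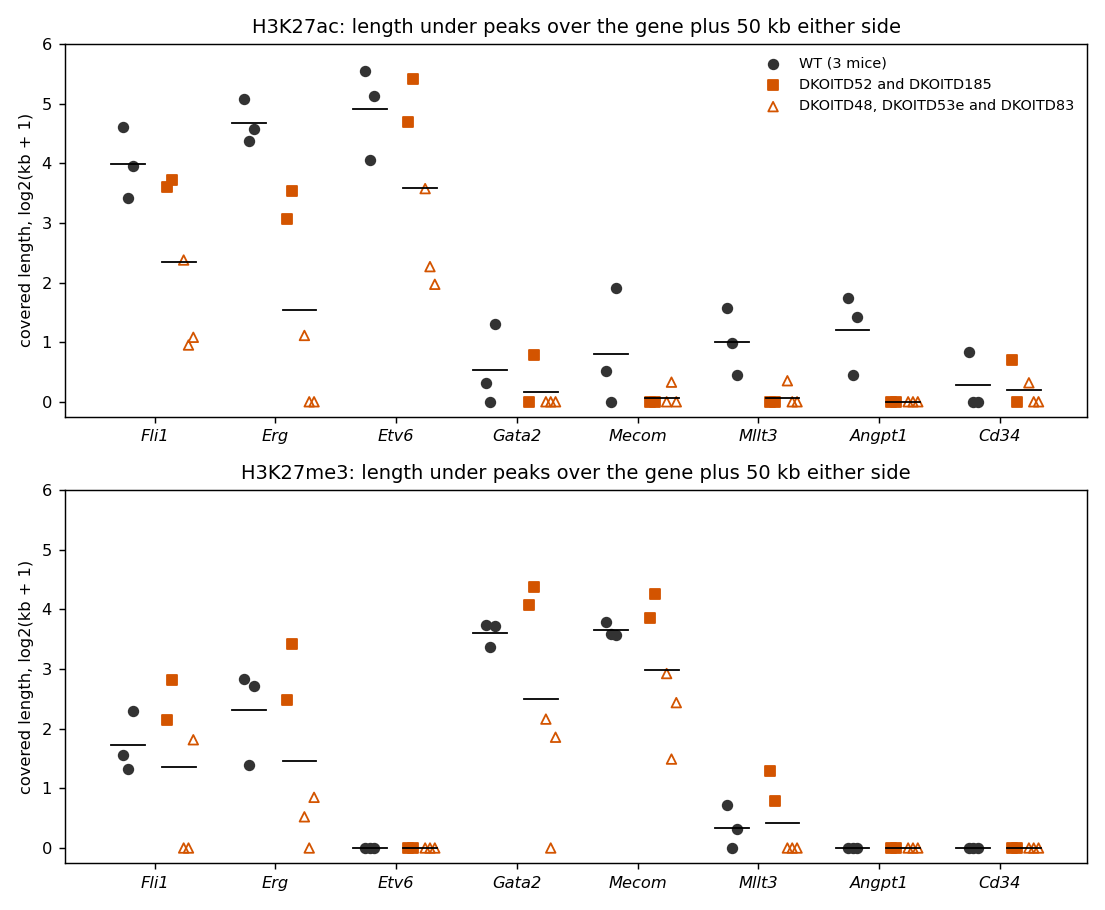
Covered length of H3K27ac (top) and H3K27me3 (bottom) over each gene plus 50 kb either side, as log2(kb + 1), with 1 point per mouse and a line at the group mean. Circles are WT, squares DKOITD52 and DKOITD185, and open triangles the 3 DKOITD mice with the smallest territories. For Erg, Mllt3 and Angpt1 the H3K27ac circles lie above all DKOITD points, and for Etv6 the H3K27ac squares lie among the circles. In H3K27me3 at least 1 square lies above every circle at Fli1, Erg, Gata2, Mecom and Mllt3.

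Fli1, an ETS transcription factor needed for blood stem cells and for megakaryocytes, lies at mm10 chromosome 9, 32422204 to 32543432, and is transcribed from the higher coordinate. Its H3K27ac covered 23.4, 9.69 and 14.4 kb in WT1, WT2 and WT3. In DKOITD48, DKOITD52, DKOITD53e, DKOITD83 and DKOITD185 it covered 4.20, 11.1, 0.934, 1.12 and 12.1 kb. The means were 15.8 ± 6.96 kb (SD, n = 3) and 5.90 ± 5.40 kb (SD, n = 5), and the groups overlapped because DKOITD52 and DKOITD185 exceeded WT2.

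The difference at Fli1 was not the same along the gene. One region just inside the start, 0.3 to 5.1 kb into the gene, held H3K27ac in all 8 mice. Its near edge lay 0.61, 0.80 and 0.33 kb from the annotated start in WT1, WT2 and WT3, and 1.95, 1.63, 2.03, 2.04 and 1.56 kb from it in DKOITD48, DKOITD52, DKOITD53e, DKOITD83 and DKOITD185. The edges did not overlap between the groups: every WT peak began nearer the start than every DKOITD peak. How often this occurs over all genes was not counted, so nothing is read from it. The far edges did overlap, at 3.29 to 5.05 kb in WT and 2.96 to 4.34 kb in DKOITD. Within 2 kb of the start this left 1.20 to 1.67 kb of H3K27ac in WT and 0 to 0.438 kb in DKOITD. That separation depends on the window. Within 5 kb of the start the groups overlapped, with 2.50 to 4.39 kb in WT and 0.934 to 2.78 kb in DKOITD. The peak stayed among the higher ones of each list, within the top 9.10% to 17.4% by the authors' −log10 q in WT and 8.87% to 26.3% in DKOITD.

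Deeper in the gene, Fli1 had 2 further H3K27ac regions shared by the genotypes and 1 held by every WT mouse and no DKOITD mouse. The regions 21.3 to 30.0 kb and 30.9 to 37.0 kb from the start were found in 3 of 3 WT mice and in DKOITD48, DKOITD52 and DKOITD185. The region 12.5 to 17.5 kb from the start, at chromosome 9, 32525970 to 32530932, covered 4.17, 0.657 and 1.99 kb in WT1, WT2 and WT3 and had no peak in any of 5 DKOITD mice. The strongest peak there stood 53.8%, 88.5% and 55.8% of the way down the WT1, WT2 and WT3 lists by −log10 q. From 44.1 kb to the end of the gene, and beyond it, H3K27ac was limited to single peaks of at most 0.249 kb in WT1 or WT2. Of 13 merged Fli1 regions, 10 were held by WT mice alone, 3 by both genotypes and 0 by DKOITD alone. WT1 was the only holder of 6 of the 10, and without it 4 were WT-only.

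H3K27me3 at Fli1 lay in 2 places. Over the start, from −1.15 to 1.29 kb (negative distances lie before the start), peaks covered 0.507 kb in WT3 and 1.25, 1.14 and 2.44 kb in DKOITD52, DKOITD83 and DKOITD185, with none in WT1, WT2, DKOITD48 and DKOITD53e. In DKOITD52, DKOITD83 and DKOITD185 these peaks ended 1.26, 0.72 and 1.29 kb into the gene, short of where the H3K27ac peak of the same mouse began. In WT3 the marks overlapped by 91 bp. The other place, 132.5 to 136.1 kb from the start and so past the end of the gene, lies within the non-coding gene Gm31755 and short of the potassium channel gene Kcnj1. It was held by 3 of 3 WT mice and by DKOITD52, DKOITD83 and DKOITD185. Over the whole window H3K27me3 covered 1.96, 1.502 and 3.89 kb in WT1 to WT3 and 0, 3.44, 0, 2.52 and 6.06 kb in DKOITD48, DKOITD52, DKOITD53e, DKOITD83 and DKOITD185, with overlapping groups.

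**Figure D2:**
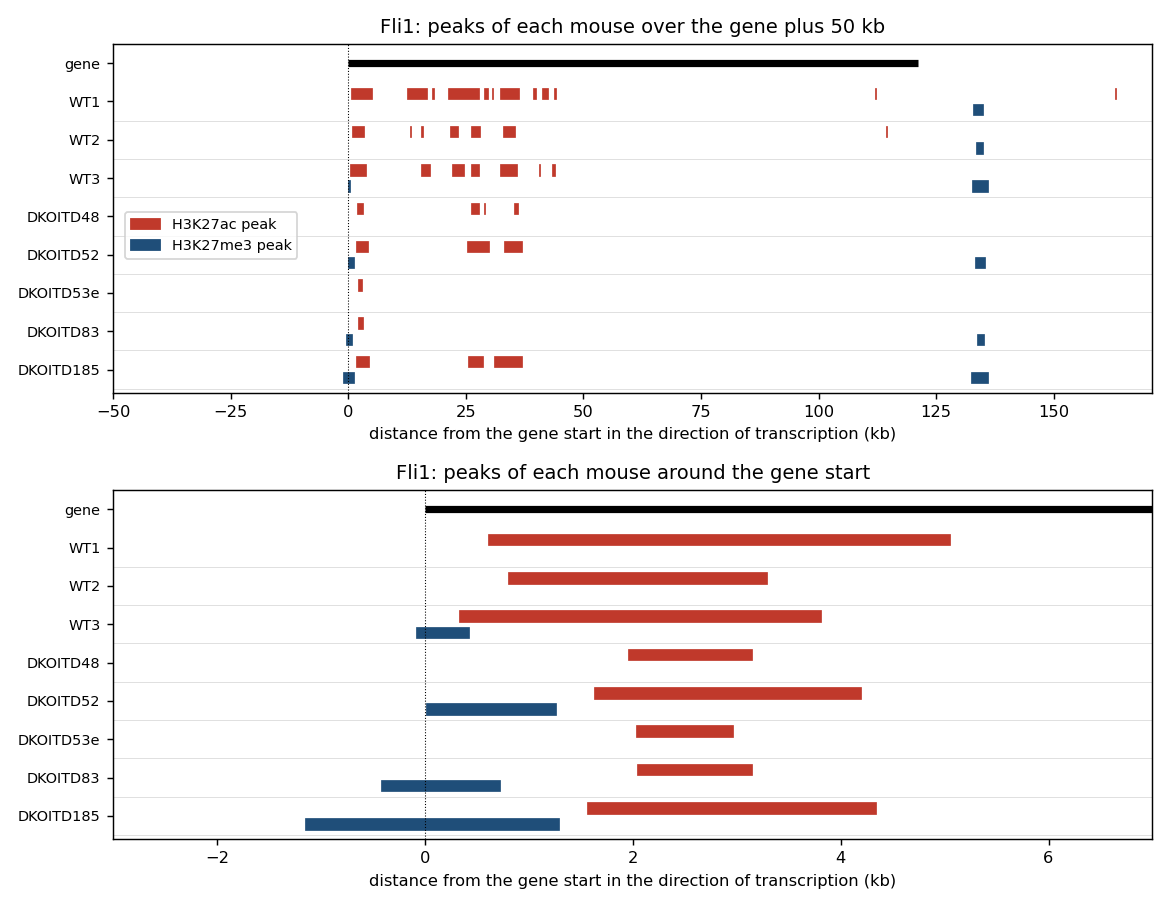
Peaks of each mouse along Fli1, with H3K27ac in red above H3K27me3 in blue, against distance from the gene start in kb. The upper panel shows the gene plus 50 kb and the lower panel the 10 kb around the start, where every WT H3K27ac peak begins within 0.80 kb of the start and every DKOITD peak at 1.56 kb or later.

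Erg, a close relative of Fli1 that is needed to maintain adult blood stem cells, spans chromosome 16, 95359169 to 95586600, and is also transcribed from the higher coordinate. No other annotated gene lies in its window. H3K27ac covered 32.8, 19.7 and 22.8 kb in WT1, WT2 and WT3. It covered 1.16 and 7.34 kb in DKOITD48 and DKOITD52, 0 kb in DKOITD53e and DKOITD83, and 10.6 kb in DKOITD185. The means were 25.1 ± 6.87 kb (SD, n = 3) and 3.82 ± 4.87 kb (SD, n = 5), and the groups did not overlap.

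Along Erg the H3K27ac regions differed in how far the groups lay apart. In all 8 mice the 50 kb before the gene and its first part held no H3K27ac peak, and the acetylated part began 120.9 kb from the annotated start. Promoters inside the gene were not assigned, so the Erg promoter used in marrow is not shown to lack H3K27ac. The longest region, 126.1 to 141.6 kb from the start, covered 13.6, 10.5 and 11.7 kb in WT1, WT2 and WT3 and 0.478, 4.19 and 6.75 kb in DKOITD48, DKOITD52 and DKOITD185. At 144.5 to 148.1 kb the groups overlapped, with 2166, 3232 and 2446 bp in WT1, WT2 and WT3 and 684, 414 and 2433 bp in DKOITD48, DKOITD52 and DKOITD185. They also overlapped at 151.7 to 154.6 kb, where 1335 bp in DKOITD52 and 1429 bp in DKOITD185 exceeded the 827 bp of WT2 and 735 bp of WT3. The regions at 120.9 to 122.7 kb (chromosome 16, 95463927 to 95465748) and, 1.03 kb long, from 184.0 kb on (95401578 to 95402610) were held by 3 of 3 WT and 0 of 5 DKOITD mice. Their WT peaks stood low in their lists by −log10 q, 69% to 96.4% of the way down for the first and 82.1% to 86.4% for the other. Beyond the gene end, the region at 235.7 to 239.1 kb covered 3.37, 2.51 and 3.36 kb in WT and 0.528 kb in DKOITD52, with no peak in the other 4 DKOITD mice.

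Of 18 merged Erg regions, 12 were held by WT mice alone, 6 by both genotypes and 0 by DKOITD alone. WT1, the library with the largest H3K27ac territory, was the only holder of 6 of the 12, and without it 6 were WT-only and 1 was DKOITD-only. Together with the 1 at Fli1, the 2 Erg regions made up all 3 of the 85 merged H3K27ac regions of the 8 genes that every WT mouse and no DKOITD mouse held. Over the genome 3.26% of 32836 merged regions had that pattern. As a share of territory, Erg had 1.10, 1.17 and 1.08 kb per Mb in WT1, WT2 and WT3 and 0.0890, 0.360, 0, 0 and 0.446 kb per Mb in DKOITD48, DKOITD52, DKOITD53e, DKOITD83 and DKOITD185, and the groups did not overlap. On that scale the genes higher in every WT mouse were Fli1, Erg and Angpt1. Fli1 had 0.578 to 0.787 kb per Mb in WT and at most 0.546 in DKOITD. For Mllt3 the 0.0175 kb per Mb of WT3 lay below the 0.0212 of DKOITD48. The share of all genes with this pattern was not counted per Mb of territory, so nothing is read from it. The Erg difference of means, DKOITD minus WT, was −21.3 kb, −13.5 kb with an equal number of the strongest peaks per library and −12.7 kb with peaks at −log10 q of at least 5. The Fli1 difference was −9.94 kb, −3.22 kb with equal numbers of peaks, −1.76 kb with peaks at −log10 q of at least 5, and −4.22 kb without DKOITD48, DKOITD53e and DKOITD83.

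H3K27me3 sat at the opposite end of Erg, over the annotated start, from −3.9 to 6.8 kb. Over the whole window it covered 6.16, 1.62 and 5.60 kb in WT1, WT2 and WT3 and 0.437, 4.58, 0, 0.802 and 9.76 kb in DKOITD48, DKOITD52, DKOITD53e, DKOITD83 and DKOITD185. The start was marked in 3 of 3 WT mice and in DKOITD52, DKOITD83 and DKOITD185, and the groups overlapped. Inside the acetylated part, short H3K27me3 peaks were called only in DKOITD48 (0.437 kb) and DKOITD185 (0.520 kb). The latter lay wholly under an H3K27ac peak of the same mouse, an overlap of 520 bp.

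Etv6, an ETS repressor needed for the survival of blood stem cells in adult marrow, lies at chromosome 6, 134035700 to 134270158, and is transcribed from the lower coordinate. Its H3K27ac covered 45.6, 15.7 and 34.0 kb in WT1, WT2 and WT3. In DKOITD48, DKOITD52, DKOITD53e, DKOITD83 and DKOITD185 it covered 10.9, 24.9, 3.81, 2.92 and 41.7 kb. The means were 31.7 ± 15.1 kb (SD, n = 3) and 16.85 ± 16.45 kb (SD, n = 5), with DKOITD48, DKOITD53e and DKOITD83 below every WT mouse and DKOITD185 above WT2 and WT3. Without those 3 mice the difference turned to 1.55 kb higher in DKOITD.

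The start of Etv6 carried H3K27ac in 8 of 8 mice, in a region from −1.4 to 10.1 kb, and that region held the strongest Etv6 peak of each mouse. Of 39 merged regions, 18 were held by both genotypes, 8 by WT mice alone and 13 by DKOITD mice alone. Of those 13, 10 were held by a single mouse, and without DKOITD185 the count was 6. All 6 regions that every WT mouse held were also found in at least 2 DKOITD mice. One region, 183.8 to 186.5 kb from the start, was held by 5 of 5 DKOITD mice and by WT1 and WT3. DKOITD-only regions included 1 before the gene, within the predicted gene Gm46977 (DKOITD48 and DKOITD185), and 1 at 169.8 to 172.0 kb (DKOITD52 and DKOITD185). No H3K27me3 peak was called in the Etv6 window in any of 8 mice.

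**Figure D3:**
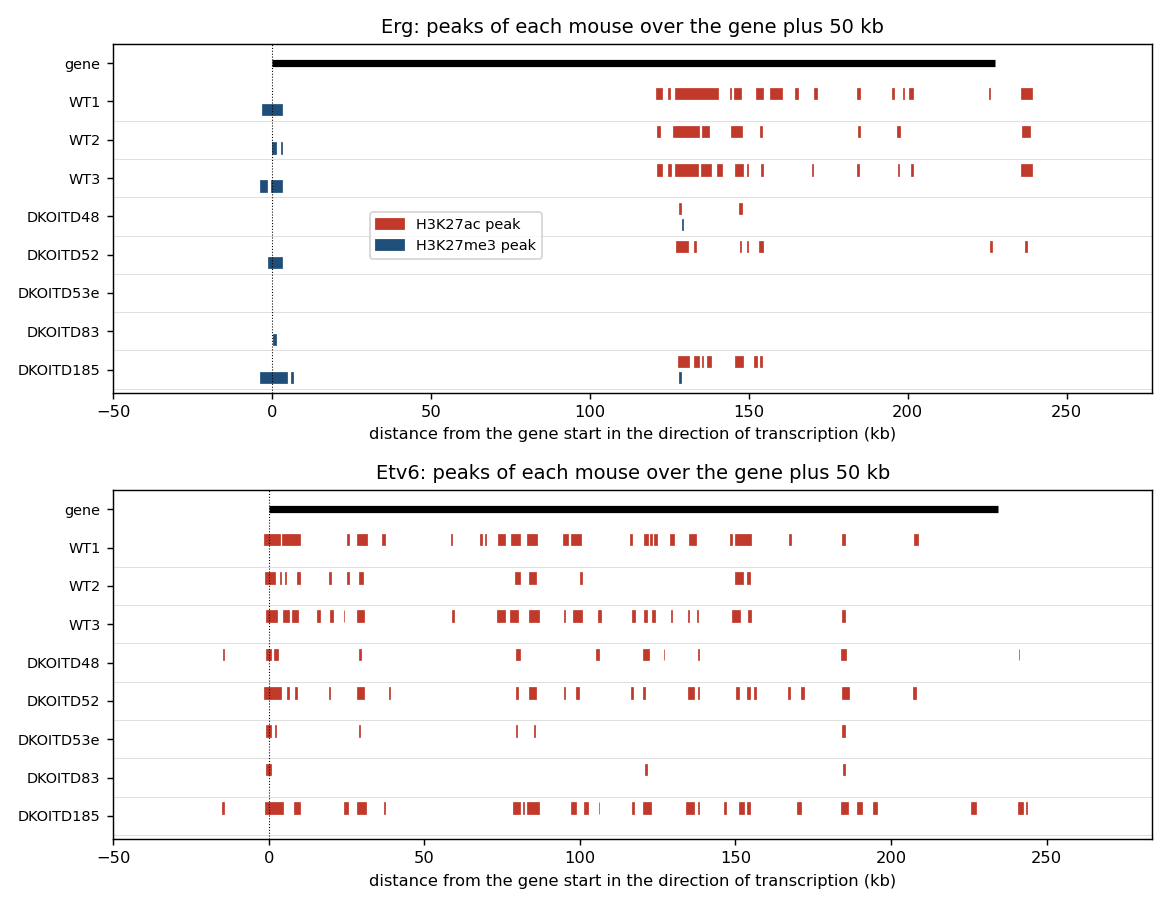
Peaks of each mouse along Erg (top) and Etv6 (bottom), with H3K27ac in red above H3K27me3 in blue, against distance from the gene start in kb. At Erg the blue peaks lie over the start and the red ones from 120.9 kb onward. At Etv6 red peaks lie over the start in 8 of 8 mice and DKOITD185 carries 41.7 kb in all.

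Gata2, a zinc finger factor needed for the formation and upkeep of blood stem cells and for mast cells, lies at chromosome 6, 88193891 to 88207032, and is transcribed from the lower coordinate. It was mainly an H3K27me3 locus in both groups. H3K27me3 covered 12.3, 9.35 and 12.2 kb in WT1, WT2 and WT3 and 3.47, 15.9, 0, 2.62 and 19.9 kb in DKOITD48, DKOITD52, DKOITD53e, DKOITD83 and DKOITD185. One region, from −2.0 to 10.7 kb around the start, took in most of the gene and was held by 7 of 8 mice. DKOITD52 and DKOITD185 exceeded every WT mouse and the other 3 DKOITD mice lay below all of them.

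H3K27ac at Gata2 was slight and scattered. It covered 0.242, 0 and 1.48 kb in WT1, WT2 and WT3, and 0.730 kb in DKOITD185 with 0 kb in the other 4 DKOITD mice. Apart from 1 in the gene, the WT peaks lay at −28.7 to −27.7 kb, within the non-coding gene Gm38708, and the DKOITD185 peak lay at −41.9 to −41.2 kb. The only H3K27ac peak inside the gene, of 0.483 kb in WT3, lay wholly under the H3K27me3 peak of that mouse. A separate H3K27me3 stretch 33.9 to 39.0 kb after the start, past the chaperone gene Dnajb8, was called in DKOITD52 (1.36 kb) and DKOITD185 (5.03 kb). The next H3K27me3 region, 39.9 to 42.7 kb after the start, was held by both genotypes. It covered 766 bp in WT1, 1290 bp in WT3, 1848 bp in DKOITD52 and 2423 bp in DKOITD185.

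Mecom, which encodes the zinc finger factor Evi1 and its longer form with a PR domain and is tied to long-term self-renewal, lies at chromosome 3, 29951296 to 30509759, and is transcribed from the higher coordinate. H3K27me3 covered 12.8, 11.1 and 10.9 kb in WT1, WT2 and WT3. It covered 6.60, 13.5, 1.81, 4.42 and 18.1 kb in DKOITD48, DKOITD52, DKOITD53e, DKOITD83 and DKOITD185. A region over the outermost start, from −6.6 to 4.9 kb, was held by 8 of 8 mice and was the only H3K27me3 region of the 8 genes found in all of them. Another, 495.4 to 500.4 kb from the start, between the non-coding genes Mecomos and Gm52621, was held by 3 of 3 WT mice and by DKOITD52 and DKOITD185.

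H3K27ac at Mecom lay just inside the start, 0.5 to 2.5 kb from it, in WT1 (0.430 kb), WT3 (2.05 kb) and DKOITD53e (0.256 kb). By rank of −log10 q these peaks stood 98.7%, 85.4% and 97.2% of the way down their lists. WT3 had 1 further peak of 0.712 kb, 53.2 kb into the gene, and the other 5 mice had none in the window. In WT1 the whole H3K27ac peak, 430 bp, overlapped H3K27me3, and in WT3 the overlap was 1259 bp, the longest among the 64 pairs of a gene and a mouse. Overlap of the marks was found in 5 of those 64 pairs, but it needs both marks in the same window. Both were present in 6 mice at Fli1, 6 at Erg, 3 at Mecom, 3 at Gata2 and 2 at Mllt3. No mouse had both at Etv6, Angpt1 or Cd34. The marks overlapped in 1 mouse at Fli1, 1 at Erg, 2 at Mecom, 1 at Gata2 and 0 at Mllt3.

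**Figure D4:**
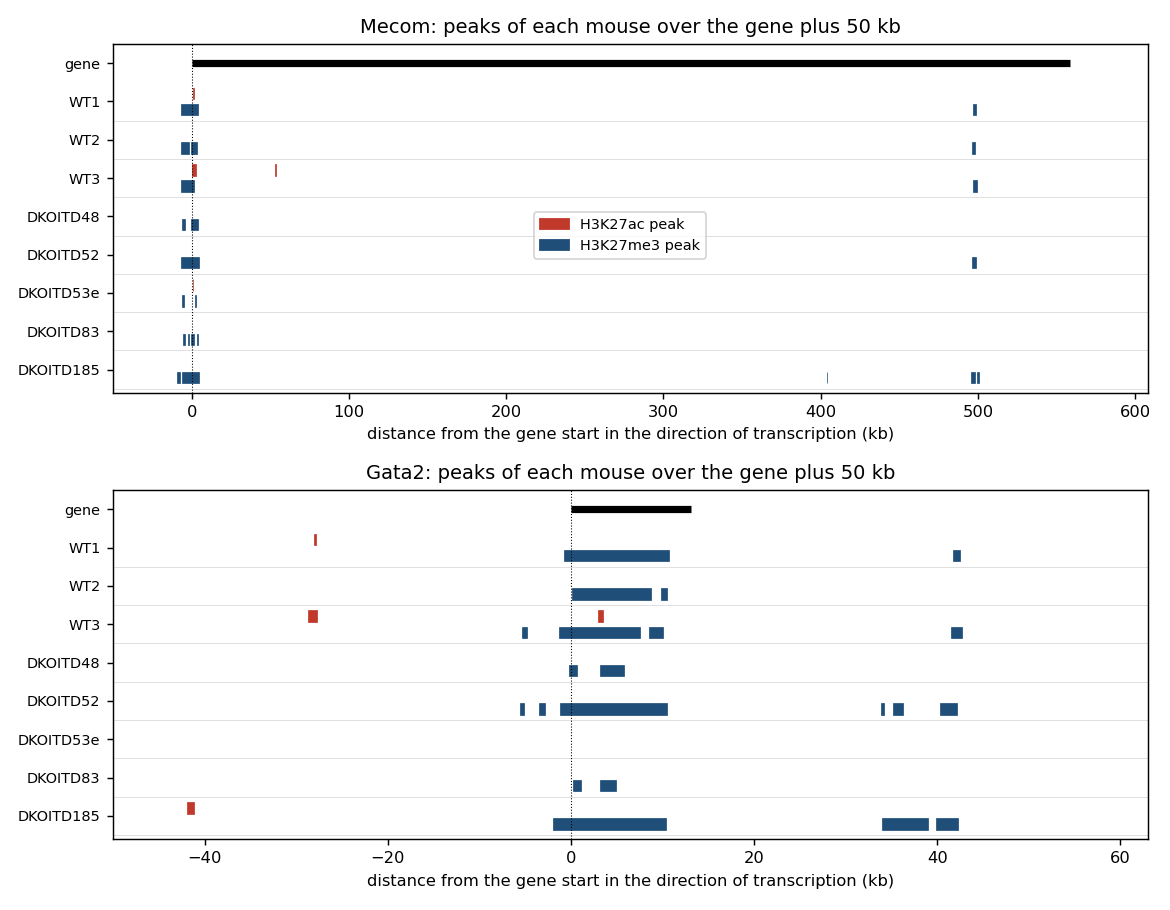
Peaks of each mouse along Mecom (top) and Gata2 (bottom), with H3K27ac in red above H3K27me3 in blue, against distance from the gene start in kb. The H3K27me3 block over the Mecom start is present in 8 of 8 mice and that over Gata2 in 7 of 8, and the few red peaks are at most 2.05 kb long.

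Mllt3, also called AF9, is a reader of acylated histones that joins the elongation machinery and the H3K79 methyltransferase Dot1l, and it lies at chromosome 4, 87769925 to 88033407, transcribed from the higher coordinate. H3K27ac covered 1.96, 0.976 and 0.371 kb in WT1, WT2 and WT3, and 0.277 kb in DKOITD48 with 0 kb in the other 4 DKOITD mice. Each WT mouse had a short peak near the start and no DKOITD mouse did. Mllt3 was the only one of the 8 with this pattern within 2 kb of its start, which 0.704% of all genes showed at either end. The WT peaks were not at 1 site. They ran from −1.40 to −0.42 kb in WT2, from −0.34 to 0.88 kb in WT1 and from 0.35 to 0.72 kb in WT3.

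The 3 Mllt3 start peaks stood 68.7%, 96.9% and 83.9% of the way down the WT1, WT2 and WT3 lists. With only peaks at −log10 q of at least 5, no mouse had H3K27ac in the Mllt3 window. The DKOITD48 peak lay elsewhere, 104.9 kb into the gene. H3K27me3 lay 0.7 to 2.2 kb after the start, in WT1 (0.639 kb), WT3 (0.241 kb), DKOITD52 (1.44 kb) and DKOITD185 (0.731 kb). It did not overlap H3K27ac in any mouse.

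Angpt1, the secreted ligand of the receptor Tek (Tie2), which helps keep blood stem cells quiescent in their niche, lies at chromosome 15, 42424667 to 42676977, transcribed from the higher coordinate. H3K27ac covered 2.32, 0.366 and 1.67 kb in WT1, WT2 and WT3 and 0 kb in each of 5 DKOITD mice. A region over the start was held by WT1 (2.02 kb) and WT3 (0.818 kb), and a short one 166.5 kb into the gene by WT1 and WT2. WT3 had a further peak of 855 bp, 155.7 kb into the gene. No single region was shared by 3 WT mice, so the gene did not pass in all of them through the same region. With peaks at −log10 q of at least 5 it had none in any mouse, and H3K27me3 was not called in its window.

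Cd34, a surface sialomucin used to sort progenitors, lies at chromosome 1, 194938821 to 194961292, transcribed from the lower coordinate. It carried few peaks in either group. H3K27ac covered 0.779 kb in WT1, 0.247 kb in DKOITD48 and 0.618 kb in DKOITD52, and 0 kb in the other 5 mice. The DKOITD52 peak lay over the start, and that of DKOITD48 lay with 1 of the WT1 peaks 37.6 kb after it, past the gene. No H3K27me3 peak was called in the Cd34 window.

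**Figure D5:**
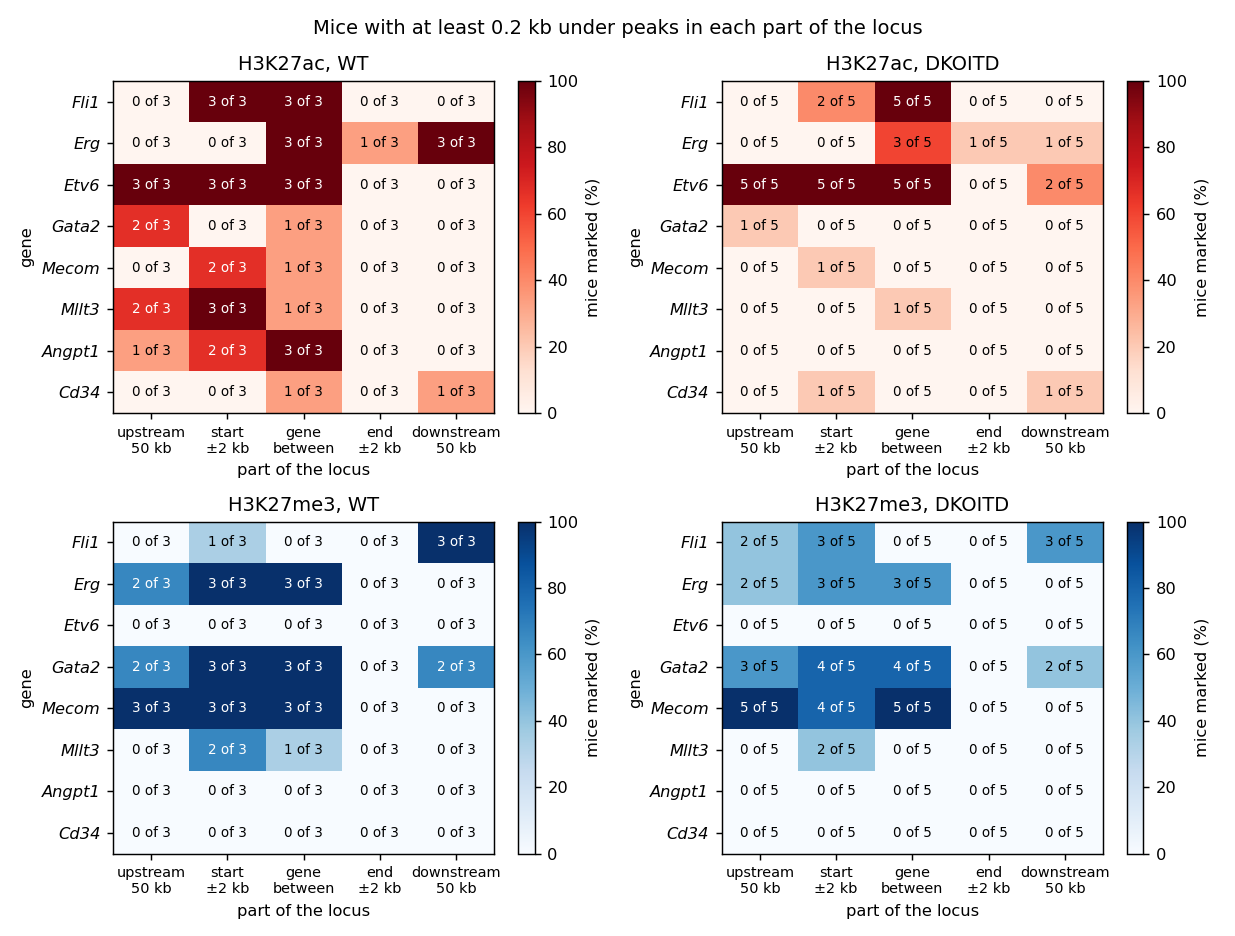
Number of mice with at least 0.2 kb under peaks in 5 parts of each locus, by mark and genotype, with colour for the percent of mice. The start part spans 2 kb either side of the start, so it shares 2 kb with the upstream part. For H3K27ac, Mllt3 goes from 3 of 3 to 0 of 5 at the start, Fli1 from 3 of 3 to 2 of 5 there and stays at 5 of 5 inside the gene, and Erg is unmarked at the start in both groups.

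The H3K27me3 test called none of the 8 genes. Of the 8, 5 passed the filter of at least 0.2 kb in at least 3 of 8 libraries, and Etv6, Angpt1 and Cd34 did not because no library had a peak there. The limma log2 differences of kb + 1, DKOITD minus WT, were −0.37 ± 0.72 (SE) for Fli1 (adjusted p = 0.813), −0.86 ± 0.80 for Erg (adjusted p = 0.672) and 0.07 ± 0.49 for Mllt3 (adjusted p = 0.95). They were −0.66 ± 0.64 for Mecom (adjusted p = 0.679) and −1.11 ± 0.90 for Gata2 (adjusted p = 0.667). The median of the 5 was −0.66, beside −0.635 over 11045 genes tested. Over all these genes limma called 0 lower (0%) and 0 higher (0%), with 575 lower and 9 higher when an unadjusted p under 0.05 was taken.

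No gene of the 8 had more H3K27me3 in every WT mouse than in every DKOITD mouse, against 2.24% of all genes. At Fli1, Erg, Mecom and Gata2 the highest H3K27me3 value of all 8 mice was that of DKOITD185, whose H3K27me3 territory was 40.5 Mb, and DKOITD53e, with 3.17 Mb, was at or tied with the lowest. Without DKOITD48, DKOITD53e and DKOITD83 the differences turned positive, to 0.76 for Fli1, 0.64 for Erg, 0.405 for Mecom and 0.62 for Gata2, and none was called. Over all genes the median then moved to 0.46.

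Among 20 other stem and progenitor genes, 18 passed the H3K27ac filter. By limma at an adjusted p under 0.05, 4 were lower and 0 higher in DKOITD, beside 3.12% and 0.211% of all genes tested. The list was drawn up with earlier results of these libraries known, so it is not independent evidence of a direction. Tal1, a heptad factor that sets up the blood lineage, had 3.34, 3.42 and 4.48 kb of H3K27ac in WT1, WT2 and WT3, 0.374 kb in DKOITD52 and 0 kb in the other DKOITD mice (log2 difference −2.15 ± 0.22, adjusted p = 0.00178). Lmo2, the bridging protein of the Tal1 complex, averaged 12.5 ± 4.36 kb in WT and 2.68 ± 1.18 kb in DKOITD (adjusted p = 0.0186). Hlf, a stem cell factor, covered 0.657 to 1.85 kb in WT and 0 kb in all 5 DKOITD mice (adjusted p = 0.0242), and Kit, the receptor used for the WT enrichment, averaged 2.13 ± 1.21 kb and 0.169 ± 0.377 kb (adjusted p = 0.0459).

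The median log2 difference of the 18 was −0.95, beside −0.39 over all genes tested. Without DKOITD48, DKOITD53e and DKOITD83 only Tal1 remained called, and Tal1 alone was also called without WT1, without WT3 or without DKOITD48. With peaks at −log10 q of at least 5, 10 of the 20 genes were tested and 0 were called. With equal numbers of peaks 15 were tested, and 5 were called lower and 1 higher. Tal1 carried H3K27me3 of 2.86, 2.09 and 2.31 kb in WT1 to WT3 and 4.79, 11.8, 3.35, 6.68 and 16.5 kb in DKOITD48, DKOITD52, DKOITD53e, DKOITD83 and DKOITD185. The groups did not overlap, and the limma test did not pass (log2 difference 1.31 ± 0.54, adjusted p = 0.662). Of the 20 other stem and progenitor genes Tal1 alone had every DKOITD mouse above every WT mouse in H3K27me3, a pattern found in 6 of all 21887 genes (0.0274%).

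Related families were counted in the same way. Of 13 other ETS genes all passed the filter, with a median of −0.70 beside −0.39 over all genes tested. Of the 13, 1 was lower and 0 higher, beside 3.12% and 0.211% of all genes tested. That gene was Ets1, a lymphoid ETS factor, with 10.8, 6.17 and 4.76 kb in WT1, WT2 and WT3 and 0 to 1.43 kb in DKOITD (log2 difference −2.21 ± 0.34, adjusted p = 0.0107, and 0.102 without WT1). Of 10 elongation and Dot1l partners of Mllt3, 0 were called, with 10 of 10 marked over the gene plus 1 kb in each of 8 mice and a median of −0.56. Of the heptad, Lyl1 averaged 18.4 ± 3.89 kb and 10.35 ± 6.38 kb (adjusted p = 0.259) and Runx1 24.3 ± 6.68 kb and 14.1 ± 12.9 kb (adjusted p = 0.315), and neither passed. Tek, the receptor of Angpt1, had 0 kb of H3K27ac in all 8 mice.

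Markers of other marrow cells also differed between the groups, counted as genes with H3K27ac over the gene plus 1 kb. Of 10 granulocyte genes 8 to 10 were marked in WT and 1 to 7 in DKOITD, with summed lengths of 23.8 to 37.9 kb and 0.447 to 11.8 kb. Of 10 erythroid genes 4 to 7 and 1 to 2 were marked, and of 7 mast cell genes 2 to 3 and 0 to 2, with Cpa3, Ms4a2, Fcer1a and Mcpt8 marked in no mouse. Of 10 dendritic cell genes 4 to 6 were marked in WT and 8 to 9 in DKOITD, with 9.84 to 17.2 kb and 17.2 to 53.4 kb. Of 10 B cell genes 2 to 8 and 1 to 4 were marked. The part of these differences in the H3K27ac of the 8 genes was not tested.

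Endothelial cells and megakaryocytes also express Fli1 and Erg, and marrow stroma is a source of Angpt1. Of 10 endothelial genes 1 to 2 were marked in WT and 0 to 3 in DKOITD, with 7 of 10 marked in no mouse, among them Tie1, Emcn and Sox17. Of 10 megakaryocyte genes 1 to 2 were marked in both groups, and Pf4, Gp1bb and Ppbp were marked in no mouse. Of 5 stroma genes 0 to 1 were marked in WT and 0 in DKOITD. Of 9 T cell genes 2 were marked in each WT mouse and 1 to 2 in DKOITD, and the 5 pan-leukocyte genes were all marked in 7 of 8 mice. The 8 genes were measured with 50 kb flanks. With such flanks, 4 of 10 megakaryocyte genes had more H3K27ac in every WT than in every DKOITD mouse, against 10.8% of all genes. They were Pf4, Gp1bb, Treml1 and Ppbp, and 0 of 10 had the reverse. Pf4 and Ppbp had equal values, 2.76, 0.637 and 0.804 kb in WT1, WT2 and WT3 and 0 kb in every DKOITD mouse. With 50 kb flanks, 5 of 10 granulocyte, 3 of 7 mast cell, 3 of 10 erythroid and 3 of 10 B cell genes were higher in every WT mouse. So were 2 of 9 T cell, 1 of 5 stroma, 0 of 10 endothelial and 0 of 5 pan-leukocyte genes. Of 10 dendritic cell genes 0 were, and 3 had the reverse, whose share over all genes was not counted.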

How the data were processed

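ChIP-seq peak lists of 16 mouse libraries of a 28-sample series (H3K27ac and H3K27me3 in 3 WT and 5 DKOITD mice) were used; the human cell line lists were not used here. Reads were aligned with Bowtie2 2.2.5 and peaks called with MACS2 2.0.10, per the submitters' processing notes; the header of each list names MACS 2.0.10.20131216, broad peaks, a q cutoff of 0.05 and 1 input library per genotype. Drosophila spike-in reads were not used by the authors, per the labels. The deposited lists give 1 row per peak with coverage signal (pileup), the fold enrichment ratio over input, and −log10 q, per the file headers; these are the authors' values, used here to order and filter the peaks of each list. Positions are mm10, 1-based.

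Gene spans came from a RefSeq gene table for GRCm38.p6, the assembly behind mm10, which matched all 8 symbols. It gives neither strand nor exons, so transcription direction was taken from general knowledge, the start is the outermost end of the gene, and exons, introns and UTRs were not assigned. No sequence is shown. Peaks were merged within each library and the covered length taken over the gene plus 50 kb either side, over 2 kb either side of each gene end, and over the parts between (Python 3.11.15, numpy 2.4.6, pandas 2.3.3). Limma 3.58.1 in R 4.3.3 was fitted to log2(kb + 1) of every gene with at least 0.2 kb in at least 3 of 8 libraries, with Benjamini-Hochberg adjustment over all genes tested; the fit was tested on simulated data. Fold changes on this scale understate differences at short lengths. The members and lists were chosen with earlier results of these data known. Genes named beside the 8 are their neighbours, list genes that met a stated count of 5 or fewer, and the 3 genes most like each of Fli1, Erg, Mllt3 and Mecom. Alternatives were a stricter threshold, equal numbers of peaks, other flanks, minima, pseudocount and filter, and each mouse left out; scaling by territory, leaving out 3 mice and the counts of merged regions without a mouse were chosen after seeing the data. Depth is the number of fragments per library, and peak lists carry no counts per peak.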

Additional observations from a re-analysis of the deposited data

Results flagged for a closer look

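The H3K27ac values of 3 single DKOITD mice stood apart from the other 4 of their group by the gap to the nearest value. They were Mllt3 in DKOITD48 (0.277 kb), Mecom in DKOITD53e (0.256 kb) and Gata2 in DKOITD185 (0.730 kb), and in each case the other 4 DKOITD mice were at 0 kb over the gene plus 50 kb. Each of these values is a single peak. Of the 8 genes and 2 marks, 12 groups of 5 mice had any spread to examine, and chance alone sets about 1 group in 20 apart. That rate does not apply to these 3 groups: with the other 4 mice at 0 kb, any single value stands apart.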

How the results depend on the processing

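The count of genes with H3K27ac higher in every WT mouse, 3 in the main analysis, was 1 (Erg) with peaks at −log10 q of at least 5, and ranged from 3 to 5 over the leave-one-out analyses. It was 5 (Fli1, Erg, Mllt3, Mecom and Angpt1) without WT2, 2 (Fli1 and Erg) with equal numbers of peaks, 4 (with Gata2) with a 100 kb flank, and 3 per Mb of territory, where Fli1 took the place of Mllt3. The count of genes with H3K27ac in 3 of 3 WT mice and in 0 of 5 DKOITD mice, 1 (Angpt1), was 2 (Mllt3 and Angpt1) without DKOITD48, DKOITD53e and DKOITD83, 0 when 1 kb was needed, and ranged from 1 to 2 when each mouse was left out, with 2 without DKOITD48. With −log10 q of at least 5, or equal numbers of peaks, that count stayed at 1 but the gene was Erg. The share of all genes with either pattern was counted only in the main analysis, so the counts under other settings are only stated. Leaving out a mouse also makes either pattern easier to meet. The start count stayed at 1 with windows of 5 kb. For H3K27me3 the number of the 8 genes called stayed at 0 under each of 17 alternatives.

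Erg, Fli1, Mllt3 and Angpt1 were lower in H3K27ac under each alternative in which their difference was not 0. Signs turned, DKOITD minus WT in H3K27ac kb, for Mecom (0.0512 with equal numbers of peaks), Gata2 (−0.713 to 0.025 over leave-one-out analyses, the highest without WT3), Etv6 (1.55 without DKOITD48, DKOITD53e and DKOITD83) and Cd34. For Cd34 the difference was 0.0494 with equal numbers of peaks, 0.0493 with a 10 kb flank, 0.0493 without those 3 mice and 0.00111 kb per Mb of territory, and it ranged from −0.217 to 0.173 over leave-one-out analyses, the highest without WT1. In H3K27me3 log2 differences, signs turned for Fli1 (0.613 with a 10 kb flank, 0.759 without the 3 mice), Erg (0.637 without the 3), Gata2 (0.623 without the 3), Mecom (1.03 with equal numbers of peaks, 0.405 without the 3, 0.183 per Mb of territory) and Mllt3 (−0.152 with a pseudocount of 0.1 kb, and −0.144 to 0.26 over leave-one-out analyses). The cause of these changes was not tested.

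Over all genes the H3K27ac calls, 489 lower and 33 higher, were 43 and 16 with −log10 q of at least 5 and 908 and 243 with equal numbers of peaks. The H3K27me3 calls, 0 and 0, were 6 lower and 122 higher without the 3 mice and 168 and 12 per Mb of territory. The median log2 difference of all genes in H3K27ac moved from −0.391 to 0.016 without the 3 mice. No paired analysis was possible because WT and DKOITD are different mice that share no number. The number of fragments and the share of them in peaks limit which short peaks could be called.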

Other observations

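The genes whose H3K27ac length over the 8 mice was most like that of 4 members are given as a description. The points share library, depth and territory, and genes compared numbered 12161 to 12584, on other chromosomes and with a mean of at least 1 kb. For Fli1 they were Paip2 (Pearson r = 0.9994), Prdx5 (0.9982) and Slc23a1 (0.9981), and for Erg Chsy1 (0.9966), Mpp1 (0.9965) and F8 (0.9963). Paip2 and Prdx5 had H3K27ac in all 8 mice, and Chsy1 covered 11.5 to 18.9 kb in WT and 2.26 to 7.95 kb in DKOITD. For Mllt3 they were Tmem169 (0.9863), Agpat5 (0.9845) and Neil3 (0.9827), of which Neil3 covered 1.35 to 5.70 kb in WT and 0 to 0.966 kb in DKOITD. For Mecom they were Speer4d (0.9835), Myh3 (0.9734) and Gm21190 (0.9710), and the Mecom likeness follows 1 mouse: Speer4d had 7.05 kb in WT3, 1.02 kb in DKOITD53e, 0.278 kb in DKOITD83 and 0 kb in the other 5 mice. Speer4d and Gm21190 are members of repeated gene families, so their peaks are uncertain.

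The dendritic cell list held the only genes of the marker lists called higher in DKOITD H3K27ac by limma. They were H2-Aa and H2-Ab1, which encode an antigen-presenting class II molecule. They were 2 of 10 tested, beside 0.211% of all genes tested, and the list median was 0.84 beside −0.39 over all genes. Of the marker lists, those called lower were Camp, S100a8 and S100a9 of 10 granulocyte genes, Vpreb1 and Igll1 of 10 B cell genes (the surrogate light chain of early B cells), Hdc and Kit of the mast cell list, Car2 of the erythroid list and Gp1bb of the megakaryocyte list. Of all genes tested 3.12% were called lower. These calls are over the gene plus 50 kb: Gp1bb had 0.976 to 3.09 kb there in WT and was marked over the gene plus 1 kb in no mouse. Windows of genes that lie close together can share peaks, as the equal values of Pf4 and Ppbp show. Such genes are therefore not separate counts.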
